A study of Mus musculus with 6 samples.

Results

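Glycolysis and hypoxia genes, the enzymes and transporters that turn glucose into lactate together with the oxygen sensors and target genes of the hypoxia-inducible factor HIF-1, were examined in gonadal somatic cells of mouse embryos labelled Cdyl-Het and Cdyl-KO. Cdyl encodes a chromodomain protein known as a corepressor of transcription. The members were a list of 38 gene symbols, matched by name. Of these, 36 had a row in the deposited tables of 11736 genes, and Pfkp and Eno2 are not analysed here. Cells were taken from XY (male) C57BL/6 embryos at E11.5, the stage at which the gonad commits to testis or ovary. The 3 Cdyl-Het libraries carried the genotype Cdyl-Het, Nr5a1-hCD271 and the 3 Cdyl-KO libraries the genotype Cdyl-KO, Nr5a1-hCD271. The human surface marker hCD271 is thus carried by both groups, and marker-positive cells were collected with magnetic beads. What is measured is thus a population selected for cells in which Nr5a1 drives the marker. Genes on marker lists of other cells were also present in it, as given below. The labels state neither the form of the Cdyl mutation nor how many embryos or litters a library holds, there was no wild-type group, and the p-values therefore measure only how far these samples spread, which can be technical variation.

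Glycolysis splits glucose into pyruvate in a chain of cytosolic enzymes, and lactate dehydrogenase converts pyruvate to lactate when pyruvate does not enter the mitochondria. HIF-1 is a pair of proteins whose oxygen-regulated subunit, HIF-1alpha, is marked for destruction by prolyl hydroxylases when oxygen is present. When oxygen is low the subunit persists, binds the letters ACGTG or GCGTG near its targets, and raises transcription of many glycolytic genes as well as genes for blood vessel growth, mitophagy and collagen processing. HIF-1alpha is controlled mainly at the protein level, so its mRNA is not a readout of its activity. In the fetal testis, glucose metabolism of pre-Sertoli cells is known to be needed for SOX9 expression.

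The steps between low values placed the read depth at 34.6 to 45.2 M reads per library. Values are RPKM, read counts corrected for gene length and library depth, divided by a scaling factor per library (scaled RPKM). The factors were 1.04 to 1.06 in the Cdyl-Het libraries and 0.936 to 0.966 in the Cdyl-KO libraries, so scaling itself moved with the groups. It raised the median log2 difference of all genes, Cdyl-KO minus Cdyl-Het, from -0.12 to -0.00, and differences below are relative to that shift. Cdyl itself stood at 7.78, 8.04 and 8.27 scaled RPKM in Cdyl-Het against 6.77, 6.95 and 7.01 in Cdyl-KO (log2 difference -0.19, SE 0.05, limma adjusted p = 0.0635), and reads from an unaltered part of the gene would not check the labels. All 8 markers of gonadal somatic cells had a row, and their summed level was 342 to 388 scaled RPKM in Cdyl-Het and 328 to 372 in Cdyl-KO. Within that sum 3 markers were called higher (Sry, Lhx9 and Nr0b1, log2 differences 0.39 to 0.50), and Sox9 was called lower, at 51.8 ± 7.34 against 25.1 ± 5.20 (SD, n = 3 per group; log2 difference -1.03, limma adjusted p = 0.0144). Genes on marker lists of other cells were present as well. The summed level of 9 of 10 endothelial markers was 35.4 to 38.9 in Cdyl-Het and 22.7 to 25.9 in Cdyl-KO, that of 8 of 9 mesonephric epithelium markers 99.4 to 116 and 144 to 151, and that of 6 of 11 erythroid markers 51.8 to 260.2 and 55.1 to 160.4. All 9 endothelial genes were below 0, with log2 differences of -0.59 to -0.28. In 8 of them the groups did not overlap (15.0% of all genes in this direction), and 4 were called lower (3.09% of all genes). Of 11 macrophage and 10 germ cell markers, 2 each had a row, as did 3 of 8 neural and neural crest markers, whose sum was 5.23 to 6.80 in Cdyl-Het and 7.42 to 10.2 in Cdyl-KO. Of these 3, Tubb3 alone was called higher, at 1.31 in Cdyl-Het against 4.01 in Cdyl-KO. Stmn2 and Hand2, with log2 differences of 0.34 and -0.15, were not called. The mesonephric list did not move as a whole. Most of its sum came from Emx2 (53.4 in Cdyl-Het against 79.4 in Cdyl-KO), Krt8 (18.6 against 23.8) and Krt18 (18.3 against 27.5). These 3 and Pax8 were called higher, while Pax2, Cdh1, Cdh16 and Epcam, which were not called, differed by -0.20, -0.11, -0.12 and 0.02. The sum alone therefore does not show a change in mesonephric cells. The part of these cells in the results below was not tested.

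The members spanned a wide range of levels. Ldhb, which encodes the heart-type subunit of lactate dehydrogenase, was the highest member in both groups, at 472 ± 43.3 scaled RPKM in Cdyl-Het and 394 ± 10.9 in Cdyl-KO (SD, n = 3 per group). In Cdyl-Het the next were Pkm at 117 ± 4.24, Eno1 at 113 ± 5.36, Gapdh at 108 ± 3.16 and Aldoa at 104 ± 4.47, neighbours that did not differ beyond their spread. In Cdyl-KO, Aldoa stood next after Ldhb. The lowest were Slc2a3 at 1.75 ± 0.449 and Pfkfb2 at 1.69 ± 0.268. All 36 had a mean of at least 1 RPKM in both groups, so none was listed through its level in 1 group alone. With exon lengths of GENCODE M21, the member value with the fewest implied reads was Egln3 in Cdyl-KO replicate 2, at about 142, and the others stood for more.

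**Figure D1:**
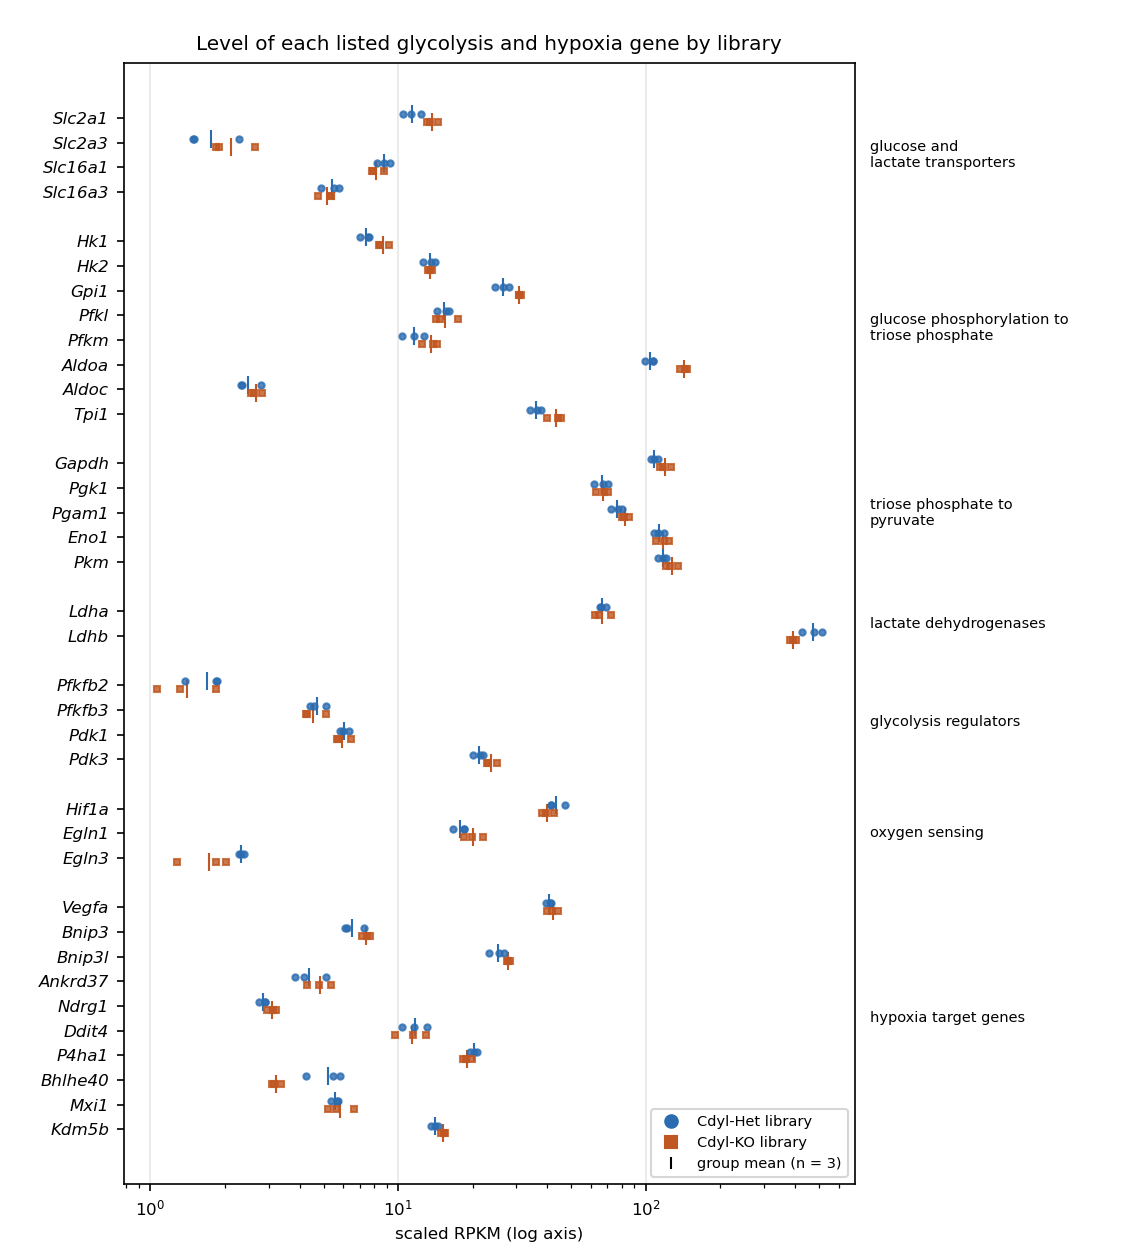
Level of each of the 36 listed genes in scaled RPKM on a log axis, by role, with circles for the 3 Cdyl-Het libraries, squares for the 3 Cdyl-KO libraries and ticks for the group means. Ldhb lies far to the right of all other genes at 384 to 514 scaled RPKM, the groups are clearly apart at Aldoa and Bhlhe40, and for most genes the circles and squares lie close together.

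Most of the glycolysis and hypoxia genes did not pass the test between the genotypes. With limma and a threshold of 0.05 on p-values adjusted over all genes, Aldoa rose, Bhlhe40 fell and the remaining 34 of 36 listed members were not called (5.56% called). Among all genes, 929 of 11736 (7.92%) were called, of which 566 (4.82%) were higher and 363 (3.09%) lower, so the members' share lay near the background. The median log2 difference of the members was 0.07. The groups did not overlap at 12 members that were higher and 3 that were lower in Cdyl-KO, against 16.8% and 15.0% of all genes in these directions. These shares of all genes changed with level, and the counts at the level of most members are given below. The 95% interval of the difference lay within 0.5 log2 units on either side of 0 for 31 of the 36. In these bulk samples, fewer cells of a type and less RNA per cell cannot be told apart.

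The sign of small differences depended on scaling. Under 5 ways of scaling, 24 members kept their sign, 12 above and 12 below 0, and 12 changed it. The members' median was -0.05 on the deposited values, -0.01 after quantile normalization and -0.01 after cyclic loess normalization. On the deposited values 1 member was higher and 3 were lower (2.60% and 13.3% of all genes). At an unadjusted p under 0.05 stood 11 of the 36 members and 25.6% of all genes, the background for such counts below.

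**Figure D2:**
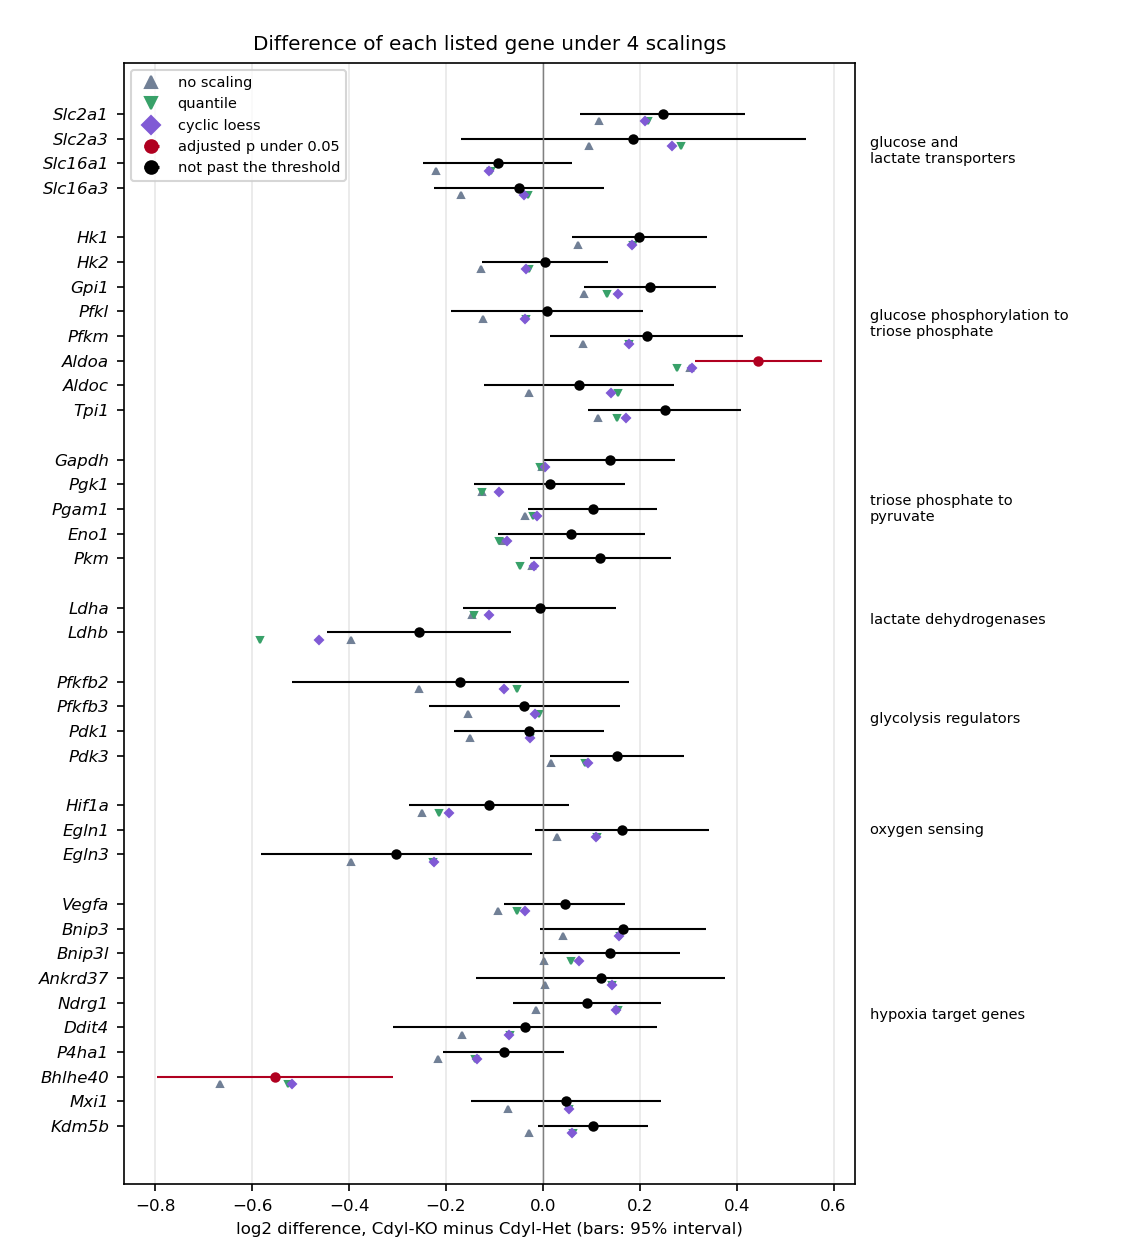
Log2 difference of each listed gene, Cdyl-KO minus Cdyl-Het, by role, with circles and bars for the scaled values and their 95% intervals and small symbols for unscaled, quantile and cyclic loess values. Aldoa at 0.44 and Bhlhe40 at -0.55 are the called genes, the interval of Hk2 spans -0.12 to 0.13, and the symbols of Ldhb lie further below 0 than its circle.

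The upper part of the pathway, from glucose phosphorylation to triose phosphate, held the member that rose. Aldoa encodes aldolase A, which splits fructose bisphosphate into triose phosphates (chromosome 7, 126795234 to 126800751, minus strand, GENCODE M21, mm10). In Cdyl-Het it was measured at 107, 107 and 99.3 scaled RPKM, against 138, 143 and 146 in Cdyl-KO. Every Cdyl-KO library lay above every Cdyl-Het library, by more than the spread within either group. The log2 difference was 0.44 (SE 0.06, limma adjusted p = 0.00851). It was 0.28 after quantile normalization, where the adjusted p of 0.0664 missed the threshold (0.00701 to 0.0664 over all alternatives). Of the 8 genes of the mesonephric list given above, 4 were also called higher and 4 were not called, and their part in the difference of Aldoa was not tested. In GENCODE M21 the symbol Aldoa is carried by 2 gene models, and exons of the one used overlap Fam57b on the opposite strand, whose reads could be shared because the strand setting of the counting is not given.

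The promoter of Aldoa is shown because it belongs to the called glycolytic gene and holds the HIF-1 letters. It covers 250 bases before to 50 bases after a RefSeq start site (GRCm38.p6, chr7:126799129-126799428, minus strand). ACGTG and GCGTG were searched on both strands, and capitals mark the match, here ACGTG read on the opposite strand.
Aldoa promoter: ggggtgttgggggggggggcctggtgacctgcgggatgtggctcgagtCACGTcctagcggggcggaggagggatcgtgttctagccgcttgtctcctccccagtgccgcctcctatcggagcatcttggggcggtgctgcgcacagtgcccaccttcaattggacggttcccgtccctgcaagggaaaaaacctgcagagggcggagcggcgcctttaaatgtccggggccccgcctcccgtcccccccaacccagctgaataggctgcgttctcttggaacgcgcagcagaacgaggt
The match starts 202 bases before this start site. A further listed start site of Aldoa lies upstream and its window holds the same match at 126 bases before it, while the window of the third holds none.

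The other 7 listed genes of this step did not pass the threshold. Of all 8, 5 had an unadjusted p under 0.05 (limma), against 25.6% of all genes. In 4 of the 8 the groups did not overlap, all higher in Cdyl-KO, against 16.8% of all genes. The members were chosen with earlier results of these data known, so these counts cannot be read as an excess. Gpi1, glucose phosphate isomerase, was at 28.1, 26.5 and 24.6 scaled RPKM in Cdyl-Het against 30.6, 30.8 and 31.3 in Cdyl-KO (log2 difference 0.22, SE 0.06, limma adjusted p = 0.0643). Tpi1, which interconverts the triose phosphates, was at 37.9, 36.5 and 34.0 against 44.3, 45.3 and 40.0 (0.25, SE 0.07, limma adjusted p = 0.0685). Hk1, the broadly expressed hexokinase, was at 7.04, 7.57 and 7.65 against 8.38, 9.19 and 8.44 (0.20, SE 0.06, limma adjusted p = 0.0885). In these 3 genes the groups did not overlap, with the Cdyl-KO libraries above. Hk2, the hexokinase that HIF-1 induces, lay at 14.0, 13.6 and 12.6 against 13.7, 13.3 and 13.4 (interval of the difference -0.12 to 0.13). Its libraries overlapped fully. Of the phosphofructokinases that commit glucose to glycolysis, Pfkl differed by 0.01 and Pfkm by 0.21 (limma adjusted p = 0.960 and 0.170), and Aldoc, the aldolase of brain, by 0.07. The difference was above 0 in 8 of 8 genes of this group with scaled values, in 5 on the deposited values and in 6 after quantile or cyclic loess normalization.

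**Figure D3:**
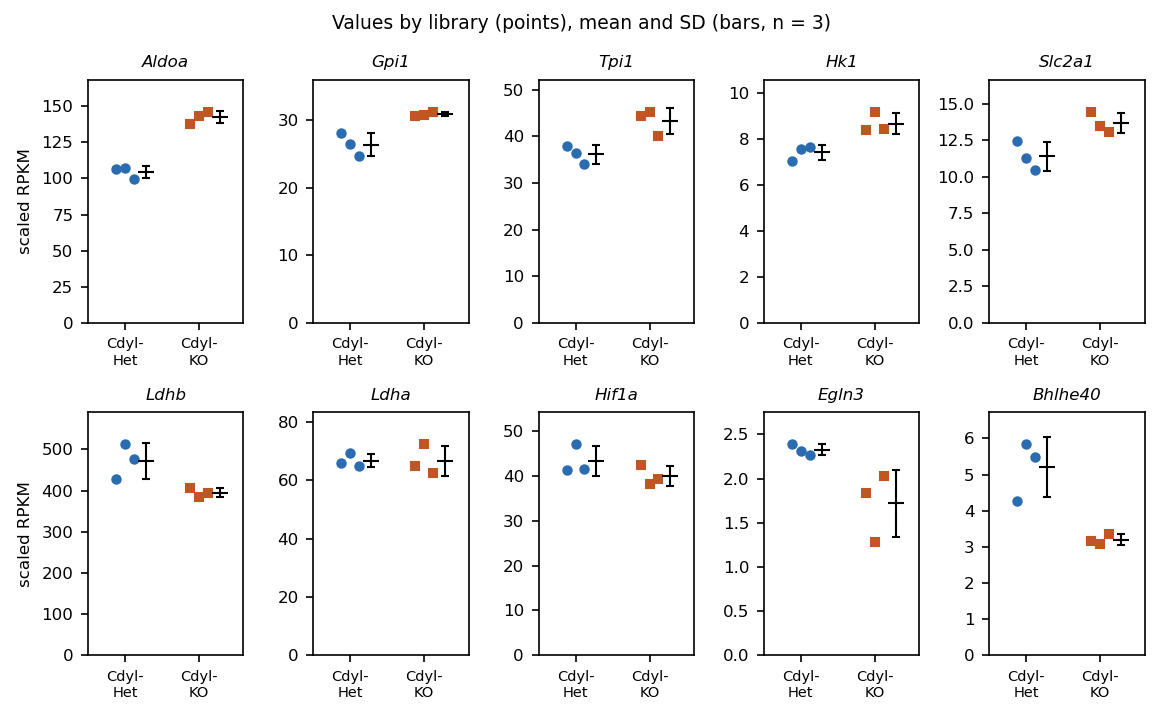
Scaled RPKM by library for 10 members, with circles for Cdyl-Het, squares for Cdyl-KO and the mean and SD (n = 3) beside each group, each axis starting at 0. Aldoa, Gpi1, Tpi1, Hk1 and Slc2a1 lie higher and Ldhb, Egln3 and Bhlhe40 lower in all Cdyl-KO libraries, while the groups of Ldha and Hif1a overlap.

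In the lower part of the chain, from triose phosphate to pyruvate, 0 of 5 listed members passed the threshold (limma), and 1 of them (Gapdh) had an unadjusted p under 0.05, against 25.6% of all genes. Gapdh, the dehydrogenase often used as a reference gene, was at 108, 112 and 105 scaled RPKM in Cdyl-Het against 114, 126 and 117 in Cdyl-KO (log2 difference 0.14, SE 0.06, limma adjusted p = 0.190). The groups of Gapdh were separate but close. Pkm, pyruvate kinase of muscle and most growing cells, was at 117, 121 and 112 against 125, 135 and 121 (0.12, limma adjusted p = 0.279), with the lowest Cdyl-KO library just above the highest Cdyl-Het library. Pgam1, phosphoglycerate mutase, was at 77.2, 79.8 and 72.5 against 81.3, 85.4 and 79.9 (0.10, SE 0.06, limma adjusted p = 0.305), and its groups nearly touched. Eno1, enolase, differed by 0.06 and Pgk1, phosphoglycerate kinase, by 0.01. The scaled differences were above 0 in all 5, but on the deposited values and after quantile normalization they were below 0 in all 5, and after cyclic loess normalization below 0 in 4. Gapdh has 75 pseudogenes in GENCODE M21 that match its transcript at 95% identity or more over at least 200 bases, Pgk1 and Ldha 4 each and the other members 0 to 3, so reads of Gapdh may be shared or lost between copies.

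The lactate dehydrogenases stood far apart in level. Ldhb encodes the subunit common in heart that favours lactate oxidation in isolated enzyme, and Ldha the subunit common in muscle that favours lactate formation. Ldhb (chromosome 6, 142490249 to 142507957, minus strand) reached 427, 514 and 476 scaled RPKM in Cdyl-Het, against 405, 384 and 394 in Cdyl-KO. All Cdyl-KO libraries lay below the lowest Cdyl-Het library, which stood nearer to them than to its own group's highest. The log2 difference was -0.26 (SE 0.08, limma adjusted p = 0.102) and did not pass the threshold. It passed on the deposited values, after quantile normalization and after cyclic loess normalization, at -0.40, -0.58 and -0.46 (limma adjusted p = 0.0253, 0.036 and 0.0205), against 0.0695 to 0.245 with a library left out. Ldha was at 66.1, 69.3 and 65.1 against 64.9, 72.5 and 62.5 (-0.01, SE 0.07, limma adjusted p = 0.965, interval -0.16 to 0.15). Its groups overlapped fully.

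The promoters of both genes are shown for contrast, a choice made after their values were seen, with the HIF-1 letters in capitals as above (RefSeq start sites, GRCm38.p6, chr7:46845554-46845853 on the plus strand and chr6:142507908-142508207 on the minus strand).
Ldha promoter: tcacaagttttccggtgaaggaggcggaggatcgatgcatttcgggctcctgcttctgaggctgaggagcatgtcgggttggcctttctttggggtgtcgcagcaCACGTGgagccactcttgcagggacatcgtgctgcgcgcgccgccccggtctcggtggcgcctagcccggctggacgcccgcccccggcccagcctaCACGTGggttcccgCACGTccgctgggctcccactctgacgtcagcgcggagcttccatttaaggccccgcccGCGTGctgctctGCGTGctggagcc
Ldhb promoter: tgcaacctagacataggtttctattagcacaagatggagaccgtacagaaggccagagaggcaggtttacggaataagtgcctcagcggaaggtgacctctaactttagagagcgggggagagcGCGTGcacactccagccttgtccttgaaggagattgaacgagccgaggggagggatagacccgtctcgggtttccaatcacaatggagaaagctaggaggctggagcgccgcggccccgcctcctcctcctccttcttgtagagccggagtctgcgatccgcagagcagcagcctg
The Ldha window shown holds 7 matches, counting both strands of each CACGTG, while the window of a further listed start site of Ldha holds 2. The Ldhb window, the only window listed for that gene, holds 1. At least 1 match was found in 82.0% of the 50 member windows, in 63.3% of the 10993 windows of all genes in the tables and in 43.8% of the 32851 windows of all RefSeq genes. Of 32 members with a window, 30 (93.8%) held a match in at least 1 window, against 69.5% of the genes in the tables. Among called genes the share was 57.4% of windows and 65.7% of genes, and no relation between matches and differences was tested.

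The transporters of glucose and lactate did not pass the threshold (0 of 4, limma), and 1 had an unadjusted p under 0.05. Slc2a1, which encodes the glucose transporter GLUT1, was at 12.4, 11.3 and 10.4 scaled RPKM in Cdyl-Het against 14.5, 13.5 and 13.1 in Cdyl-KO. All Cdyl-KO libraries lay above all Cdyl-Het libraries (log2 difference 0.25, SE 0.07, limma adjusted p = 0.0854, interval 0.08 to 0.42). Slc2a3, the high-affinity transporter GLUT3, was low, at 1.49, 1.49 and 2.27 against 1.90, 2.64 and 1.84, and its groups overlapped. Slc16a1 and Slc16a3, which encode the monocarboxylate transporters MCT1 and MCT4, differed by -0.09 and -0.05 (limma adjusted p = 0.417 and 0.716).

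Regulators of the pathway did not pass it either (0 of 4, limma, and 1 at an unadjusted p under 0.05). Pdk3, a kinase that restrains pyruvate dehydrogenase, was the most abundant of them, at 22.0, 21.5 and 20.1 scaled RPKM in Cdyl-Het against 25.1, 23.2 and 22.8 in Cdyl-KO (log2 difference 0.15, SE 0.06, limma adjusted p = 0.159). Its groups did not overlap. Pdk1, the related kinase that HIF-1 induces, differed by -0.03 with an interval of -0.18 to 0.13. Pfkfb2 and Pfkfb3 make and break down fructose 2,6-bisphosphate, the main activator of phosphofructokinase. They differed by -0.17 and -0.04 (limma adjusted p = 0.514 and 0.812).

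Oxygen sensing is represented by Hif1a, which encodes HIF-1alpha, and by the prolyl hydroxylases Egln1 and Egln3, and 0 of these 3 passed the threshold (limma, 1 at an unadjusted p under 0.05). Hif1a was at 41.4, 47.2 and 41.6 scaled RPKM in Cdyl-Het against 42.5, 38.3 and 39.4 in Cdyl-KO, and its groups overlapped (log2 difference -0.11, SE 0.07, limma adjusted p = 0.367). Egln1, the main oxygen sensor of this family, was between 16.6 and 18.5 in Cdyl-Het and between 18.4 and 22.0 in Cdyl-KO, with overlap (0.16, limma adjusted p = 0.233). Egln3, a hydroxylase that is itself a HIF-1 target, was at 2.39, 2.32 and 2.27 against 1.84, 1.29 and 2.03. All Cdyl-KO libraries of Egln3 lay below all Cdyl-Het libraries, but they were spread widely and the difference did not pass (-0.30, SE 0.12, limma adjusted p = 0.168).

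Among 10 hypoxia target genes, 1 was called lower, 0 higher and 9 neither (limma, 1 at an unadjusted p under 0.05). Bhlhe40, a circadian and stress-responsive transcriptional repressor also known as DEC1 (chromosome 6, 108660629 to 108666925, plus strand), was measured at 4.26, 5.85 and 5.48 scaled RPKM in Cdyl-Het, against 3.15, 3.08 and 3.36 in Cdyl-KO. The Cdyl-KO libraries were tightly grouped below all Cdyl-Het libraries. The log2 difference was -0.55 (SE 0.10, limma adjusted p = 0.0247; 0.00832 to 0.0954 over all alternatives). It held its sign in the 14 alternatives that tested it and passed with 1 of 6 libraries left out, Cdyl-Het replicate 1. Without Cdyl-Het replicate 2 or 3, or any 1 of the Cdyl-KO libraries, the adjusted p was over the threshold, up to 0.0954, at log2 differences of -0.67 to -0.48 over the 6 fits. Its exons overlap 0610040F04Rik on the opposite strand.

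The other hypoxia targets differed little. Vegfa, the blood vessel growth factor and the most abundant of the group, was at 41.0, 41.5 and 39.6 scaled RPKM in Cdyl-Het against 42.0, 40.1 and 44.1 in Cdyl-KO (log2 difference 0.05, SE 0.05, limma adjusted p = 0.638, interval -0.08 to 0.17), and its groups overlapped. The mitophagy receptor genes Bnip3 and Bnip3l differed by 0.17 and 0.14 (limma adjusted p = 0.208 and 0.209). Bnip3l was at 25.6, 26.9 and 23.3 against 27.5, 28.3 and 27.9, and its groups did not overlap. Kdm5b, an H3K4 demethylase, was at 14.1, 14.5 and 13.6 against 15.3, 15.4 and 14.8, and Ndrg1, a stress-response gene, at 2.89, 2.75 and 2.90 against 2.95, 3.22 and 3.13. Both had separate groups at differences of 0.10 and 0.09 that did not pass and that lay below 0 on the deposited values (-0.03 and -0.01). P4ha1, a collagen prolyl hydroxylase, differed by -0.08. It was called on the deposited values alone (-0.22, limma adjusted p = 0.0373). Ankrd37, Ddit4, an inhibitor of mTORC1, and Mxi1, a MYC antagonist, differed by 0.12, -0.04 and 0.05, with overlapping groups.

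The balance between isozymes, the share that 1 gene takes of the summed RPKM of its family, is unaffected by a single scaling factor per library, though quantile and cyclic loess normalization can change it. The log2 difference of Aldoa exceeded that of Aldoc with scaled values (0.44 against 0.07) and less so after quantile normalization (0.28 against 0.16). Shares were compared in 9 families by exact two-sided permutation tests over libraries, whose smallest possible p with 3 against 3 is 0.10. Ldhb took 87.6% ± 0.837 of lactate dehydrogenase RPKM in Cdyl-Het and 85.5% ± 1.24 in Cdyl-KO (SD, n = 3 per group; exact p = 0.10, adjusted p = 0.18). Hk1 took 35.6% ± 2.21 and 39.2% ± 1.57 of Hk1 and Hk2 together, and Egln1 took 88.0% to 88.9% and 90.9% to 93.9% of Egln1 and Egln3 together. Aldoa took 97.7% ± 0.204 and 98.2% ± 0.0829 of the aldolases, and Pdk1 22.3% ± 0.314 and 20.1% ± 1.69 of Pdk1 and Pdk3. The groups did not overlap in these 5 families, each at the smallest exact p of 0.10 and an adjusted p of 0.18. Of single genes, 31.8% did not overlap between the genotypes, and no such share was computed for other pairs of genes. The share of Slc2a1 in glucose transporters was 86.6% in both groups, and it, Pfkl, Slc16a1 and Bnip3 had overlapping groups (exact p of 0.30 or more).

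Summed over the 15 listed enzymes from hexokinase to lactate dehydrogenase, the level was 1237 ± 57.7 scaled RPKM in Cdyl-Het and 1245 ± 23.7 in Cdyl-KO (SD, n = 3 per group). Without the lactate dehydrogenases, the sum of the remaining 13 was 707, 721 and 667 against 765, 815 and 771, a ratio of 1.12. On the deposited values, an alternative chosen after seeing the data, these 13 summed to 738, 757 and 704 against 730, 788 and 721, with overlap and a ratio of 1.018, and the ratio of the 15-enzyme sums was 0.912. Both ratios thus depended on scaling, and neither was tested.

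Differences followed level across all genes. The median log2 difference was -0.09, -0.03, 0.01 and 0.06 in 4 equal groups of all genes from the lowest to the highest mean level. Of the members, 21 lay in the highest group, where their median was 0.10, with 17 above and 4 below 0. Of all 2934 genes in that group, 2009 were above and 925 below 0. In that group 276 of 2934 genes were higher and 56 lower (11.3% called), against 1 and 0 of the 21 members (4.76%). Without overlap between genotypes, 876 of these 2934 genes were higher and 227 lower in Cdyl-KO, against 10 and 1 of the 21 members.

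**Figure D4:**
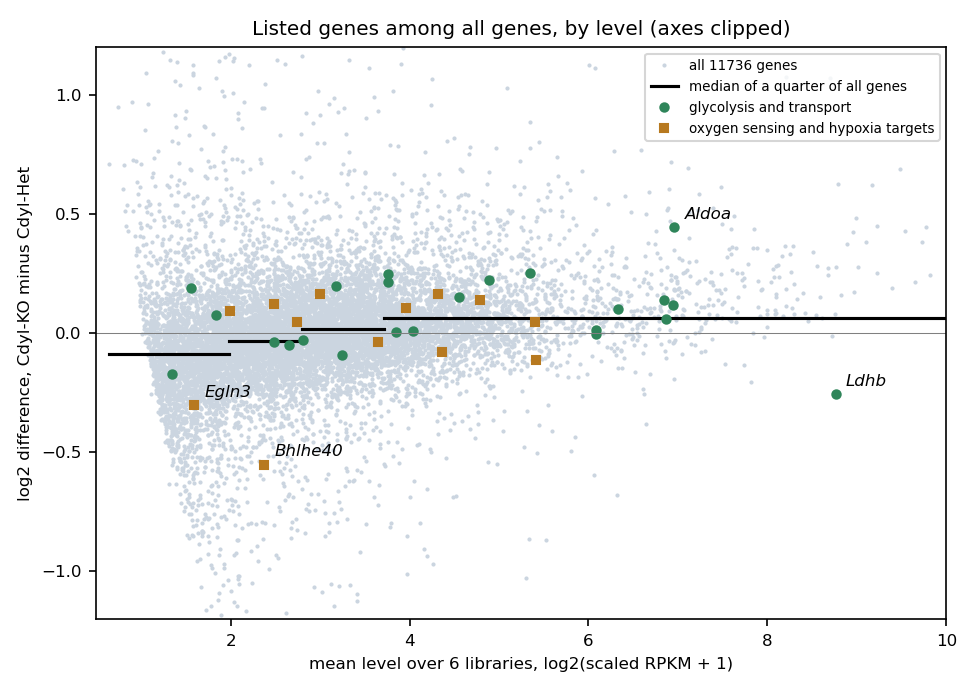
Log2 difference, Cdyl-KO minus Cdyl-Het, against mean level as log2(scaled RPKM + 1), with all genes as grey points, circles for glycolysis and transport, squares for oxygen sensing and hypoxia targets, and lines for the median of each of 4 equal groups of all genes. The lines step up from -0.09 to 0.06 with level, Aldoa lies above and Ldhb below the line of the highest group, and both axes are clipped.

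In all, 6 further lists held other genes of the pathway, 108 genes of which 83 had a row. Of these, 8 were called higher and 2 lower, and 73 were not called (against 7.92% called of all genes), with a median log2 difference of 0.02. The lists were chosen with earlier results of these data known, so their counts of calls cannot be read as an excess over all genes. The calls lay in the pentose phosphate pathway (1 of 7), the HIF system (3 of 14) and other hypoxia targets (6 of 29). At an unadjusted p under 0.05 (limma) these lists held 2, 7 and 11 genes, counts that cannot be read as an excess either. None was in other glycolysis genes (0 of 12), pyruvate entry into mitochondria (0 of 11) or glycogen metabolism (0 of 10), where limma gave 1, 2 and 3 genes at an unadjusted p under 0.05, against 25.6% of all genes. The most abundant genes there were Pgam5, Dld and Pygb, with differences of 0.02, -0.02 and 0.20.

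Tkt, which encodes transketolase of the pentose phosphate pathway (chromosome 14, 30548359 to 30574720), was at 63.8, 59.0 and 55.7 scaled RPKM in Cdyl-Het against 88.5, 83.4 and 89.0 in Cdyl-KO. It rose by 0.54 on the log2 scale (SE 0.06, limma adjusted p = 0.00746), with no overlap between groups, and passed in all 15 alternatives (0.00612 to 0.0381). The other 6 genes of that pathway did not pass.

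In the HIF system, genes moved both ways. Epas1, which encodes HIF-2alpha and is strongly expressed in endothelium, fell from 4.50, 4.16 and 4.90 to 2.90, 2.73 and 3.25 scaled RPKM (log2 difference -0.48, SE 0.08, limma adjusted p = 0.0181; 0.00939 to 0.0714 over all alternatives). The summed endothelial markers given above were lower in the same libraries, and their part in the fall was not tested. The call was lost when Cdyl-Het replicate 3 or the first or second replicate of Cdyl-KO was left out. Siah2, a ubiquitin ligase that targets the prolyl hydroxylases, rose from 3.16, 2.86 and 2.89 to 4.40, 4.02 and 4.40 (0.41, SE 0.07, limma adjusted p = 0.0164; 0.0146 to 0.0668 over all alternatives). Of the fits with a library left out it passed when Cdyl-Het replicate 1 or replicate 2 of Cdyl-KO was omitted. Cited2, which competes with HIF-1alpha for its coactivators and also acts in gonad development, rose from 34.6, 37.8 and 30.7 to 45.2, 42.2 and 44.4 (0.35, SE 0.08, limma adjusted p = 0.0436; 0.0347 to 0.125 over all alternatives). It missed the threshold on the deposited values, and of the fits with a library left out it passed without Cdyl-Het replicate 2 alone.

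Of the other hypoxia targets, 5 rose and 1 fell. Adm, the vasoactive peptide adrenomedullin, had the largest difference, from 9.37, 6.47 and 5.83 to 16.4, 13.1 and 15.9 scaled RPKM (log2 difference 0.99, SE 0.16, limma adjusted p = 0.0164; 0.00624 to 0.0655 over all alternatives). Its Cdyl-KO libraries all lay above the Cdyl-Het libraries, of which replicate 1 was the highest, and the call was lost when any of Cdyl-Het replicates 2 and 3 and Cdyl-KO replicates 1 and 3 was left out. Kdm3a, the H3K9 demethylase, was at 27.5, 26.9 and 24.2 against 37.6, 34.0 and 36.7 (0.45, limma adjusted p = 0.0127; 0.0518 without Cdyl-KO replicate 1). Selenbp1, which encodes a selenium-binding protein, was at 15.1, 14.4 and 15.3 against 19.6, 22.4 and 20.9 (0.46, limma adjusted p = 0.00993) and passed in all 15 alternatives. The collagen lysyl hydroxylase genes moved apart. Plod1 rose by 0.37 (limma adjusted p = 0.0287; 0.0225 to 0.0999 over all alternatives), while Plod2 fell by 0.38 on the log2 scale, from 11.4 ± 0.555 to 8.53 ± 0.882 (SD, n = 3 per group; limma adjusted p = 0.0321; 0.0149 to 0.0996). With a library left out, Plod1 passed without Cdyl-Het replicate 1 alone and Plod2 without Cdyl-KO replicate 2 alone. Epo, the erythropoietin gene, was called at 0.39 (limma adjusted p = 0.0428) but in 0 of the 6 fits with a library left out (0.0638 to 0.130). Its exons overlap those of Gnb2 on the same strand, so its values may hold reads of Gnb2. Plod2 and Epo are named after their values were seen. The most abundant gene of the list, Fam162a, was at 55.0 ± 5.77 and 69.95 ± 9.52 and did not pass (log2 difference 0.34, limma adjusted p = 0.120). Its groups were separate but close, at up to 60.4 in Cdyl-Het and from 61.5 in Cdyl-KO, and its exons overlap Wdr5b on the opposite strand.

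**Figure D5:**
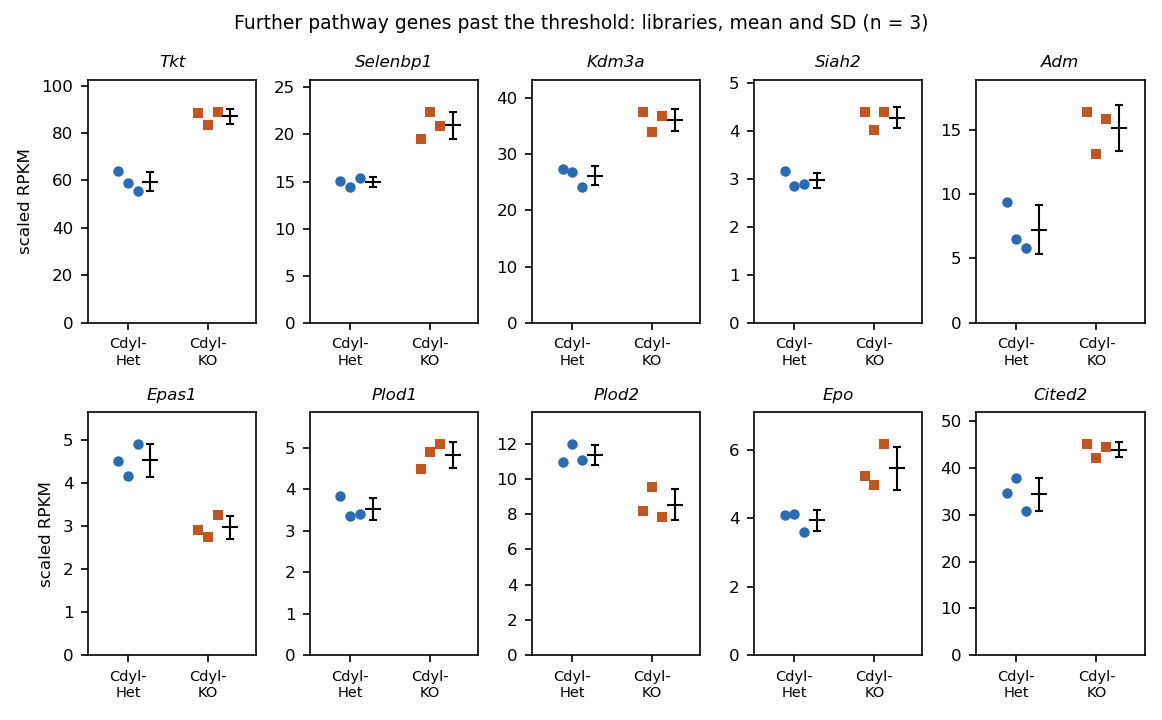
Scaled RPKM by library for the 10 further pathway genes past the threshold, ordered by p, with circles for Cdyl-Het, squares for Cdyl-KO and the mean and SD (n = 3) beside each group, each axis starting at 0. Epas1 and Plod2 are lower and the other 8 higher in all Cdyl-KO libraries, and Adm shows the largest ratio of the groups at 2.09.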

How the data were processed

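Total RNA of 6 libraries was sequenced. The submitters' processing notes name STAR, featureCounts 1.6.4 from Subread, and mm10. Annotation, strand setting and the step from counts to values: not given in the sources used here. No unit stands in the authors' deposited tables, and their values were taken as RPKM because they were not whole and their sums of 191953 to 209917 differed between libraries. Sums over the listed genes alone could differ in other length-corrected units too, so the unit remains an inference. Each listed gene has a mean of at least 1.005 in 1 group.

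Each library was divided by a trimmed mean of log ratios (30% of ratios and 5% of levels trimmed at each end). limma 3.58.1 (R 4.3.3) was then fitted to log2(scaled RPKM + 1) on all 6 libraries, with genotype alone as predictor and a variance prior that follows level. Benjamini-Hochberg adjustment covered all 11736 genes, and the threshold was 0.05. Fold changes on this scale understate changes of low genes. The procedure was tested on simulated data with independent normal noise, changes in random directions and random library factors. These data held no shift with level and no scaling linked to genotype, so the test does not address the dependence on scaling described above.

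Depth came from genes whose values times exon length were whole reads within 0.02 (76.7% to 86.9% of low values). Many implied counts were even, so both reads of a pair may have been counted. Copies were found with blastn 2.17.0, and shares were tested with scipy 1.17.1. The 15 alternatives were 4 other scalings, pseudocounts of 0.1 and 0.5, a mean of at least 5 RPKM, no variance trend, a replicate block, and each library left out.

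The members and lists were chosen with earlier results of these data known. Full values are given for members past the threshold, members whose groups did not overlap and the most abundant of each role, and for up to 4 called genes of each further list with its most abundant gene.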

Additional observations from a re-analysis of the deposited data

How the results depend on the processing

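Over all genes, 566 were higher and 363 lower in Cdyl-KO, against 305 and 1558 on the deposited values without scaling, 215 lower with a mean of at least 5 RPKM, and 197 to 417 higher and 61 to 274 lower with a library left out. Of the members, Aldoa was the 1 called higher, and 0 were after quantile normalization. Called lower were 3 members without scaling (Bhlhe40, Ldhb and P4ha1), 2 after quantile and 2 after cyclic loess normalization (Bhlhe40 and Ldhb), 0 with a mean of at least 5 RPKM, a filter that leaves out Bhlhe40, and 0 to 1 with a library left out. The median log2 difference of the members was 0.0666, against -0.0547 without scaling, -0.0147 after quantile and -0.0137 after cyclic loess normalization, and 0.0502 to 0.0948 with a library left out. Of the further pathway genes, 8 were higher and 2 lower, against 5 and 9 without scaling, 1 lower with a mean of at least 5 RPKM, and 2 to 7 higher and 0 to 2 lower with a library left out. Aldoa, Bhlhe40 and the 10 called further genes kept their direction in every alternative that tested them.

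Deviations of same-numbered libraries from their group means correlated at -0.0518, -0.268 and -0.0502, against -0.144 to 0.22 for libraries with different numbers. These correlations cannot exclude a shared litter or batch, and the labels give only the number. With the replicate block, 217 genes were higher and 131 lower, of the members 1 (Aldoa) higher and 0 lower, and of the further pathway genes 5 higher. Leaving out a library also leaves fewer samples to estimate the spread.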
